A study of Mus musculus with 22 samples.

Results

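The 7 genes described here are the opioid receptors and the precursors of the opioid peptides. They are the 4 receptor genes Oprk1, Oprm1, Oprd1 and Oprl1 and the 3 precursor genes Pdyn, Penk and Pnoc, found by symbol among the 39056 genes of the count table. All 7 passed the filter of at least 500 counts in all libraries together and detection in at least 3 of them, which left 14072 transcripts to be tested. The genes were matched by symbol, but the family itself was chosen by a measured value, the higher level of Oprk1 in EtOH + ABT-888_TRAP than in Control_TRAP. The values of that comparison are therefore given as a description for all 7 genes, as is every value of Oprk1 that rests on those TRAP libraries, and no test is attached to them.

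Opioid receptors are G-protein coupled receptors that act through inhibitory G proteins: they lower the activity of adenylyl cyclases, open inwardly rectifying potassium channels (GIRK) and reduce transmitter release. Prodynorphin (Pdyn) gives the dynorphins, which prefer the kappa receptor (Oprk1), proenkephalin (Penk) gives the enkephalins, which act on the delta (Oprd1) and mu (Oprm1) receptors, and prepronociceptin (Pnoc) gives nociceptin, the ligand of Oprl1. The family is known for its part in the rewarding and aversive effects of alcohol, and in the forebrain Penk and Pdyn mark the projection neurons of the striatum.

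RNA came from the PFC of 11 male mice aged 8 to 12 weeks. Each gave a TRAP library and a total-RNA library, so that the 22 libraries form 6 groups. The sample titles name no mouse, so the mouse numbers used here pair the libraries by their order within each pool. All mice, controls included, had a C57BL/6J background and carried the tetO-EGFP/Rpl10a and CaMKIIα-tTA transgenes, so that an EGFP-tagged ribosomal protein was made where the CaMKIIα promoter drives tTA. TRAP libraries hold the RNA pulled down with the tagged ribosomes, and total-RNA (INPUT) libraries hold RNA of every cell type in the lysate before the pull-down. Control mice (n = 3, mice 1, 4 and 7) received saline, EtOH mice (n = 4, mice 2, 5, 8 and 9) received ethanol to 2 g/kg per day, both by injection 2 times a day over 4 days. EtOH + ABT-888 mice (n = 4, mice 3, 6, 10 and 11) received the same ethanol and, on day 4 alone, 25 mg/kg of the PARP inhibitor ABT-888. Tissue was taken 2 h after the last injection.

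Counted reads per library ranged from 6570957 to 32421392, and the medians were 15711482 for TRAP and 28734687 for total-RNA. The shallowest was the TRAP library of mouse 6 (EtOH + ABT-888). The total-RNA library of the same mouse stood apart in its oligodendrocyte markers, whose summed level was 1688 normalized CPM (counts scaled to library size after TMM) against 2339 to 3332 in the other total-RNA libraries, and the TRAP library of mouse 11 had the highest such sum among TRAP libraries, 1505. The TRAP label was checked against markers of pyramidal neurons, most of which were not higher in TRAP. Camk2a itself averaged 1883 normalized CPM in Control_TRAP and 2092 in Control_total-RNA (adjusted p = 0.203, edgeR, quasi-likelihood), and of 7 pyramidal markers 5 were lower and 1, Nrgn, was higher in TRAP than in total-RNA in each treatment. All 13 markers of striatal projection neurons were higher in TRAP in each treatment, with a median log2 difference of 2.95 in Control. Their summed level lay between 12067 and 15410 normalized CPM in Control_TRAP and between 1722 and 2278 in Control_total-RNA, and none of the 13 was at 0 in any group. Of the 14 interneuron markers, 6 were higher and 5 lower in Control_TRAP, with a median log2 difference of 0.03 and sums of 2586 to 2791 normalized CPM against 1346 to 1443. Oligodendrocyte, microglia and vascular markers, 8 of 8 in each list, were lower in Control_TRAP, as were 7 of 8 astrocyte markers.

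**Figure D1:**
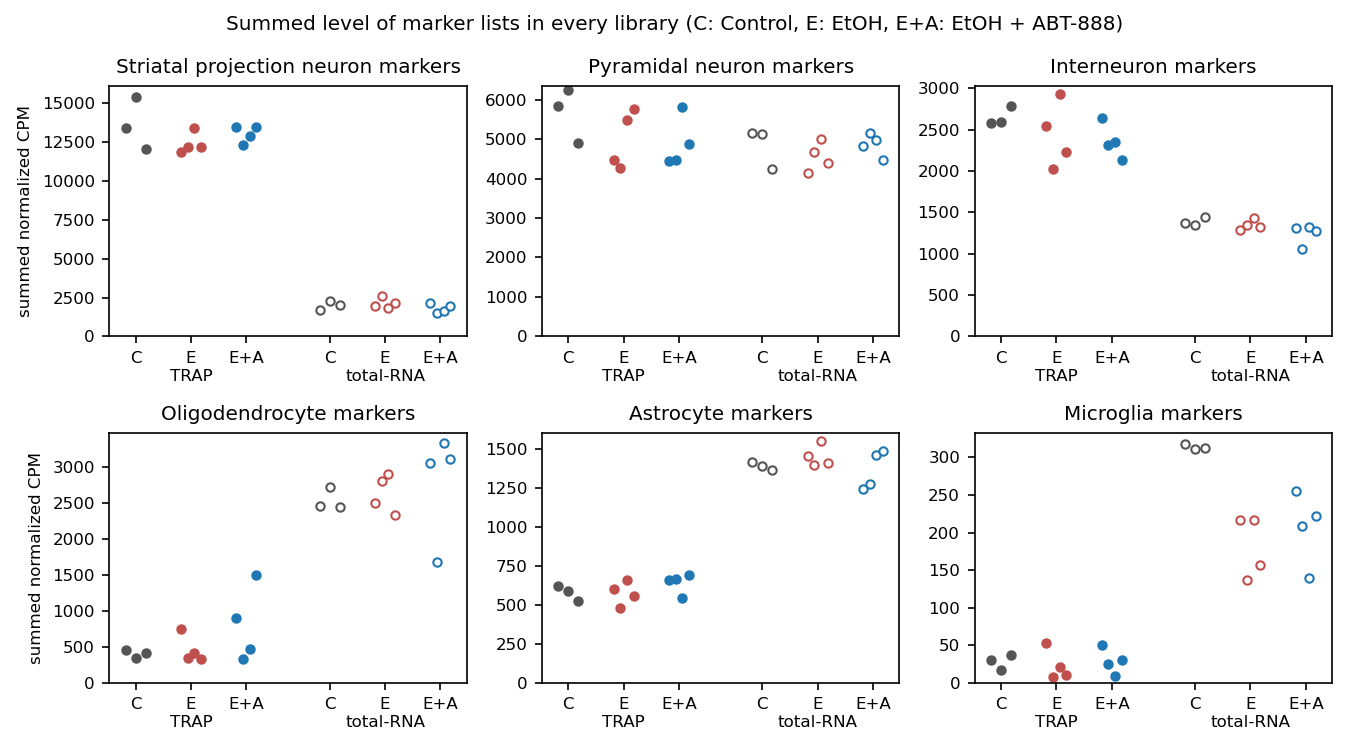
Summed normalized CPM of the genes of 6 cell type marker lists in each library (y axes, from 0), by treatment within TRAP (filled points) and total-RNA (open points). The striatal projection neuron sum is between 11868 and 15410 in every TRAP library and at most 2591 in every total-RNA library, while the oligodendrocyte, astrocyte and microglia sums are higher in total-RNA.

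Penk and Pdyn carry their opioid peptides as short repeats and Pnoc carries a single one, which is why the coding sequence around them is shown. Penk held 6 codings of Met-enkephalin and 1 of Leu-enkephalin in a coding sequence of 804 bases, Pdyn held 3 of the Leu-enkephalin core in 744 bases, and Pnoc held 1 nociceptin in 636 bases. Capitals mark the codons of the first 5 residues of each peptide, and the lower-case flanks are the neighbouring codons. Paired basic residues, at which convertases can cut, are coded by the flanks shown before the peptides. The flanks shown after them also code for such a pair, except in the last Penk copy and in Pnoc. The sequence does not show which pairs are cut, and in Pdyn the marked core is only the first 5 residues of longer peptides. Of the 7 enkephalin stretches of Penk 3 are shown and of the 3 of Pdyn 2, and among those not shown the fourth Met-enkephalin of Penk also lacks the pair after it. The sequences were read from the GENCODE M21 annotation of mm10, and bases are counted from the first base of the coding sequence.
Penk Met-enkephalin, bases 298 to 312: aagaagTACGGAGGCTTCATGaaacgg
Penk Met-enkephalin, bases 784 to 798: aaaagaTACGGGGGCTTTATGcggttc
Penk Leu-enkephalin, bases 691 to 705: aagaggTATGGGGGCTTCCTGaagcgc
Pdyn Leu-enkephalin core, bases 496 to 510: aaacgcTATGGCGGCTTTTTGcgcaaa
Pdyn Leu-enkephalin core, bases 661 to 675: aagcgcTATGGTGGTTTCCTGcggcgt
Pnoc nociceptin start, bases 421 to 435: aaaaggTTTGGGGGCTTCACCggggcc

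The genes lie at chr1:5588466-5606131 (Oprk1, plus strand), chr10:6758506-7038198 (Oprm1, plus), chr4:132110726-132144486 (Oprd1, minus), chr2:181715016-181720985 (Oprl1, plus), chr2:129686565-129699844 (Pdyn, minus), chr4:4133531-4138819 (Penk, minus) and chr14:65400673-65425472 (Pnoc, minus) of mm10. Penk shares 233 exon bases with A830012C17Rik and Oprm1 shares 96 with Ipcef1, both on the opposite strand. The strand setting of the counting is not given in the sources used here, so the levels of Penk and Oprm1 are uncertain to that extent.

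Levels of different genes were compared per length, as FPKM, counts divided by the length of the merged exons in kilobases and by library size. In Control_total-RNA, Penk stood at 209.8 ± 16.3 FPKM (SD, n = 3), above 99.5% of the tested transcripts that had a length. Pdyn followed at 11.3 ± 0.557 FPKM and Oprl1 at 8.10 ± 0.374 FPKM, then Oprd1 at 4.80 ± 1.53, Pnoc at 2.28 ± 0.276, Oprk1 at 1.81 ± 0.446 and Oprm1 at 0.913 ± 0.104 FPKM. Pnoc and Oprk1 overlapped within their SD, and the other neighbours in this order did not. In Control_TRAP the order began with Penk at 1962 ± 89.3 FPKM and Pdyn at 57.5 ± 9.41 FPKM, which put Penk above 99.99% and Pdyn above 94.6% of transcripts. Oprd1 at 7.88 ± 2.07 and Oprl1 at 7.14 ± 0.353 FPKM did not differ beyond their spread, Oprk1 stood at 3.93 ± 0.731, and Pnoc at 1.28 ± 0.582 and Oprm1 at 1.02 ± 0.215 FPKM again overlapped. The receptors with many annotated transcripts have long merged exons, and with the longest transcript as the length Oprk1 would stand at 3.55 FPKM and Oprm1 at 3.03 FPKM in Control_total-RNA, both then above Pnoc. Oprk1, with an SD of 0.872, would then overlap Oprd1, and also Oprm1 with its SD of 0.346. In Control_TRAP Oprk1 and Oprm1 would stand at 7.70 ± 1.43 and 3.39 ± 0.716 FPKM, so that Oprm1 no longer overlapped Pnoc there. Pomc, the precursor of beta-endorphin, did not pass the filter, with group means between 0.447 and 1.18 normalized CPM.

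TRAP was compared with total-RNA within each treatment to ask which transcripts are richer in the ribosome-engaged pool. Penk and Pdyn were higher in TRAP in each treatment, by more than any other member. The delta receptor Oprd1 was called higher in Control and EtOH, Oprl1 was called lower in EtOH and EtOH + ABT-888, and Pnoc was called lower in Control and EtOH + ABT-888. Without the pairing of libraries by mouse, the calls of Oprl1 and Pnoc, and that of Oprd1 in Control, were lost when single libraries were left out. With the mouse as a block and all libraries, adjusted p was 0.000278 for Oprd1 in Control (0.71 ± 0.11 on the log2 scale), 0.00283 for Oprl1 in EtOH and 0.0101 for Oprl1 in EtOH + ABT-888. In Control, 4 of the 6 members tested passed an adjusted p of 0.05, 3 higher and 1 lower in TRAP, where 59.9% of all transcripts tested did (edgeR, quasi-likelihood, Benjamini-Hochberg adjusted). In EtOH 5 of 7 passed (4 higher, 1 lower) against 50.7% of all transcripts, and in EtOH + ABT-888 4 of 6 (2 higher, 2 lower) against 41.0%. The members' counts lay near or somewhat above these shares, and the differences are therefore given by their size.

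Penk measured 3374, 3122 and 3119.6 normalized CPM in the Control_TRAP libraries of mice 1, 4 and 7, and 316, 344 and 369 in the matching total-RNA libraries. The groups lay far apart, with a log2 difference of 3.21 ± 0.10 (SE, adjusted p = 1.98e-08, edgeR). The difference was 3.32 ± 0.23 in EtOH (adjusted p = 2.03e-06) and 3.55 ± 0.26 in EtOH + ABT-888 (adjusted p = 4.39e-06). Within single mice the TRAP level was between 8.31 and 13.9 times the total-RNA level, above 1 in 11 of 11 mice.

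Pdyn measured 152, 197 and 148 normalized CPM in Control_TRAP and 32.4, 31.0 and 34.3 in Control_total-RNA. Every TRAP library was above every total-RNA library, and the log2 difference was 2.33 ± 0.12 (adjusted p = 1.16e-07, edgeR), with 2.21 ± 0.21 in EtOH and 2.24 ± 0.30 in EtOH + ABT-888. The ratio within a mouse ranged from 3.47 to 6.69. Penk and Pdyn thus moved between the pools in the direction of the striatal markers: among the 13, Gpr6 measured 129 normalized CPM in Control_TRAP against 15.9 in Control_total-RNA, and Tac1, the substance P precursor, 399 against 51.2. The part of such neurons in the Penk and Pdyn values was not tested, and in these bulk samples fewer cells of a type and less RNA per cell cannot be told apart.

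Among the receptors, Oprd1 measured 27.7, 41.3 and 26.1 normalized CPM in Control_TRAP and 15.2, 26.3 and 16.4 in Control_total-RNA. The groups touched through mouse 4, which had the highest value in both pools, and the log2 difference was 0.70 ± 0.23 (adjusted p = 0.0186, edgeR). Without the total-RNA library of mouse 1 or of mouse 7 the adjusted p rose to 0.0819 or 0.0848. In EtOH the difference was 0.66 ± 0.20 (adjusted p = 0.0169), and in EtOH + ABT-888 0.43 ± 0.25 (adjusted p = 0.189). With the mouse as a block, which uses the pairing of both libraries of a mouse, the latter became 0.45 ± 0.14 (adjusted p = 0.0223). TRAP was above total-RNA in 11 of 11 mice, by 1.17 to 1.85 times.

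Oprk1 was higher in TRAP than in total-RNA in each of 11 mice, by 1.94 to 4.60 times. In EtOH, the treatment in which its libraries could be tested, it measured 60.8, 161, 108 and 88.1 normalized CPM in TRAP and 25.6, 53.8, 23.4 and 37.2 in total-RNA (mice 2, 5, 8 and 9). No TRAP value fell to the highest total-RNA value, and the log2 difference was 1.56 ± 0.31 (adjusted p = 0.00144, edgeR). As a description, the difference was 1.11 ± 0.19 in Control and 1.85 ± 0.15 in EtOH + ABT-888.

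Oprm1 did not pass the quasi-likelihood test in any treatment. Its log2 differences were 0.14 ± 0.20 in Control (adjusted p = 0.581, edgeR) and 0.16 ± 0.24 in EtOH (adjusted p = 0.604). In EtOH + ABT-888 it was 1.08 ± 0.46 (adjusted p = 0.0785), where mice 3 and 6 measured 21.4 and 22.97 normalized CPM in TRAP against 8.72 and 8.36 in total-RNA, and mice 10 and 11 measured 4.96 and 8.79 against 3.81 and 6.26. The value thus rested on a pair of mice. The mouse as a block gave 0.92 ± 0.24 (adjusted p = 0.00739), and without the TRAP library of mouse 10 the unblocked fit gave 1.36 (adjusted p = 0.0100). The other 7 of 8 unblocked fits with 1 library left out gave no call, with differences down to 0.78 and adjusted p up to 0.223. Oprm1 was also called there by exactTest (adjusted p = 0.0478), by DESeq2 (0.0489), with no filter on low counts (0.0443) and in the joint fit of the 22 libraries (0.0145).

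Oprl1, the nociceptin receptor, went the other way. It measured 22.99, 38.7, 32.8 and 29.0 normalized CPM in EtOH_TRAP and 39.7, 53.4, 41.2 and 44.7 in EtOH_total-RNA. TRAP lay below total-RNA in every one of 11 mice, at 0.353 to 0.914 of its level. The log2 difference was -0.55 ± 0.17 in EtOH (adjusted p = 0.0198, edgeR), -0.64 ± 0.22 in EtOH + ABT-888 (adjusted p = 0.0391) and -0.20 ± 0.10 in Control (adjusted p = 0.114). The EtOH call was lost without the total-RNA library of mouse 5 or of mouse 9 (adjusted p = 0.0900 and 0.0552). The EtOH + ABT-888 call was lost without any one of 3 TRAP libraries (mice 3, 6 and 11) or 3 total-RNA libraries (mice 6, 10 and 11), with adjusted p between 0.0556 and 0.106.

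Pnoc rested on few reads in TRAP, with 5 to 59 counts per library. It measured 3.63, 1.33 and 3.36 normalized CPM in Control_TRAP and 5.40, 5.08 and 4.25 in Control_total-RNA. The groups did not overlap, and the log2 difference was -0.88 ± 0.33 (adjusted p = 0.0391, edgeR), but that call was lost without the TRAP library of mouse 4 or without any one of the 3 total-RNA libraries (adjusted p between 0.0631 and 0.119), and in a joint fit of the 22 libraries (0.269). In EtOH + ABT-888 the difference was -1.25 ± 0.45 (adjusted p = 0.0424). That call was lost without 3 of the 4 TRAP libraries (mice 3, 6 and 10) or any total-RNA library (adjusted p between 0.0542 and 0.145), and in the joint fit (0.0574). In EtOH it was -1.57 ± 0.62 (adjusted p = 0.0522), and with the mouse as a block -2.02 ± 0.52 (adjusted p = 0.00809). Without the TRAP library of mouse 2 it was -2.82 (adjusted p = 0.000168), and the other fits of all EtOH libraries also called it, with adjusted p between 0.0186 (joint fit) and 0.0486 (RLE factors). The other 7 of 8 fits with 1 library left out gave no call, with a difference as small as -1.27 and adjusted p up to 0.116. TRAP was above total-RNA in 1 of 11 mice.

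**Figure D2:**
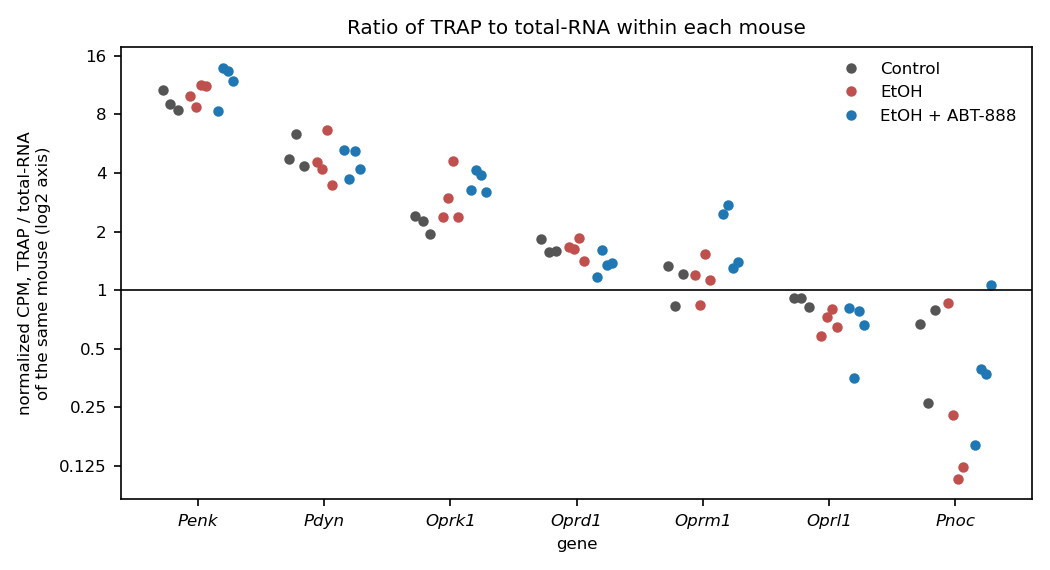
Normalized CPM in TRAP divided by that in total-RNA of the same mouse (y axis, log2 scale), 1 point per mouse, for the 7 genes on the x axis and coloured by treatment. The libraries of a mouse were paired by their order within each pool. Penk, Pdyn, Oprk1 and Oprd1 lie above 1 in 11 of 11 mice, Oprl1 lies below 1 in all 11, and Pnoc spreads from 0.108 to 1.06.

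The signalling and processing genes around the family included members higher in either pool, and their counts are to be read against the 59.9% of all transcripts called in this comparison. Of 17 G-protein subunits, 7 were higher and 8 lower in Control_TRAP (median log2 difference -0.41, against 0.02 over all transcripts tested). Gng7, a gamma subunit abundant in striatal neurons, measured 1311 normalized CPM in TRAP against 173 in total-RNA (log2 difference 2.91 ± 0.15, adjusted p = 1.17e-07, edgeR). Of 3 tested GIRK channel genes, Kcnj3 (88.1 against 244 normalized CPM) and Kcnj6 (27.5 against 67.2) were lower in TRAP. Of 21 genes of desensitization and RGS proteins, which shorten G-protein signals, 9 were higher and 7 lower (median -0.04), with Rgs9 at 552 against 98.9 normalized CPM and Rgs4 at 2089 against 816. Of 8 adenylyl cyclases, 2 were higher and 5 lower (median -1.16), and Adcy5 measured 2027 against 315 normalized CPM. Rgs9 and Adcy5 are also among the 13 striatal markers. Of 19 genes of peptide processing and breakdown, 6 were higher and 8 lower (median 0.10), with the enkephalin-degrading enzyme neprilysin (Mme) at 173 against 39.0 normalized CPM, the convertase inhibitor proSAAS (Pcsk1n) at 354 against 133, and carboxypeptidase E (Cpe), which trims the cut peptides, at 1065 against 1809.6. Of 5 other opioid-named genes tested, Ogfr was higher and Opcml and Ackr3 were lower in TRAP.

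The effect of ethanol was asked in each pool by comparing EtOH and EtOH + ABT-888 with Control. Both comparisons of a pool share the Control libraries, so their values are set side by side without a test of likeness. In total-RNA the genes of the kappa receptor, the nociceptin receptor and prodynorphin rose with EtOH by edgeR's quasi-likelihood fit. With EtOH + ABT-888 that fit called no member, while DESeq2, exactTest and the fit with no filter on low counts each called Oprk1 and Oprl1.

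In Control_TRAP, Oprk1 measured 28.6, 41.6 and 37.8 normalized CPM (36.0 ± 6.69, SD, n = 3). In EtOH_TRAP it averaged 104 ± 42.2 (n = 4) from the values given above, of which mouse 5 was the highest and mouse 2 the lowest. In EtOH + ABT-888_TRAP it measured 109, 108, 116 and 93.1 normalized CPM (106.5 ± 9.64, n = 4). Each treated group lay wholly above Control_TRAP, as did 10.4% of all transcripts with EtOH and 6.23% with EtOH + ABT-888, and the treated groups overlapped each other. The log2 difference from Control_TRAP was 1.56 ± 0.29 for EtOH and 1.58 ± 0.18 for EtOH + ABT-888, and between the treated groups it was 0.02 ± 0.25. In the same TRAP libraries the pyramidal markers had a median log2 difference of -0.77 with EtOH (1 of 7 fell) and -0.95 with EtOH + ABT-888 (2 of 7 fell), though their summed level overlapped between Control (4892 to 6243 normalized CPM), EtOH (4261 to 5757) and EtOH + ABT-888 (4436 to 5818). The deep-layer markers had a median of -0.70 with EtOH (1 of 7 fell), and the oligodendrocyte markers one of 0.83 with EtOH + ABT-888 (0 of 8 passed). Vascular markers had a median of 0.82 with EtOH + ABT-888 (0 of 8 passed), and microglia markers one of -0.71 with EtOH (1 of 8 fell). Their part in the Oprk1 values was not tested. The Oprk1 values are those the members were chosen by, or share libraries with them, and carry no test.

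The total-RNA libraries did not enter that choice but came from the same mice as the TRAP libraries, so the tests of Oprk1 in them are not independent of it. There Oprk1 measured 11.9, 18.3 and 19.5 normalized CPM in Control, 25.6, 53.8, 23.4 and 37.2 in EtOH and 33.3, 26.0, 29.7 and 29.2 in EtOH + ABT-888. Each treated library was above each Control library, a pattern that 14.7% of all transcripts showed in EtOH and 8.29% in EtOH + ABT-888. The log2 difference of EtOH from Control was 1.08 ± 0.26 (adjusted p = 0.0157, edgeR, quasi-likelihood), and that of EtOH + ABT-888 was 0.83 ± 0.18 (adjusted p = 0.0824).

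With EtOH, 3 of the 7 members passed the test in total-RNA, all higher, against 17.6% of all transcripts in either direction and 9.04% in the higher one. The 3 include Oprk1, by which the family was chosen, so the count is not independent of that choice. The background itself moved, from 2482 transcripts to between 878 (without mouse 4) and 3616 (without mouse 9) when 1 library was left out. Beside Oprk1 they were Oprl1 and Pdyn. Oprl1 measured 31.0, 28.8 and 31.4 normalized CPM in Control_total-RNA and, as given above, 39.7 to 53.4 in EtOH_total-RNA, without overlap. Its log2 difference was 0.56 ± 0.12 (adjusted p = 0.0103, edgeR). Pdyn rose from 32.4, 31.0 and 34.3 to 45.5, 59.7, 43.8 and 41.2 normalized CPM, again without overlap, by 0.55 ± 0.13 on the log2 scale (adjusted p = 0.0157).

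These 3 calls depended on the fit and on the Control libraries. A joint fit of the 22 libraries gave differences of the same size with adjusted p of 0.0617 for Oprk1, 0.186 for Oprl1 and 0.329 for Pdyn. Without the Control_total-RNA library of mouse 1, Oprk1 had an adjusted p of 0.0801 and Pdyn of 0.0704, and without that of mouse 4 Oprk1 had 0.0504, Oprl1 0.0617 and Pdyn 0.0809. In the same comparison 5 of 8 microglia markers fell, and the summed level of the 8 was 312 to 318 normalized CPM in Control_total-RNA, 137 to 217 in EtOH and 140 to 255 in EtOH + ABT-888. Of the vascular markers 3 of 8 fell, with sums of 152 to 177 normalized CPM in Control and 109 to 148 in EtOH, and of the pyramidal markers 3 of 7 fell and 1 rose. Of the striatal markers 4 of 13 rose, namely Ppp1r1b (285 to 453 normalized CPM), Tac1 (51.2 to 80.5), Six3 and Isl1, while the sum of the 13 overlapped between Control (1722 to 2278) and EtOH (1798 to 2591). The part of these cell types in the members' values was not tested.

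With EtOH + ABT-888, 0 of 7 members passed in total-RNA with edgeR (quasi-likelihood), where 0.263% of all transcripts did. At an unadjusted p under 0.05 there were 2, Oprk1 and Oprl1, against 2243 of 14072 transcripts. ExactTest and DESeq2 each called these 2, against 544 and 621 transcripts. Oprl1 measured 40.5, 55.7, 54.9 and 45.0 normalized CPM, above every Control_total-RNA library, with a log2 difference of 0.69 ± 0.14 (adjusted p = 0.0664). Leaving out the total-RNA library of mouse 3 gave adjusted p of 0.0426 for Oprk1 and 0.0107 for Oprl1, and leaving out that of mouse 10 gave 0.0494 and 0.0398. Pdyn measured 46.7, 24.3, 39.2 and 42.5 normalized CPM and overlapped Control through mouse 6 (log2 difference 0.23 ± 0.19, adjusted p = 0.589).

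**Figure D3:**
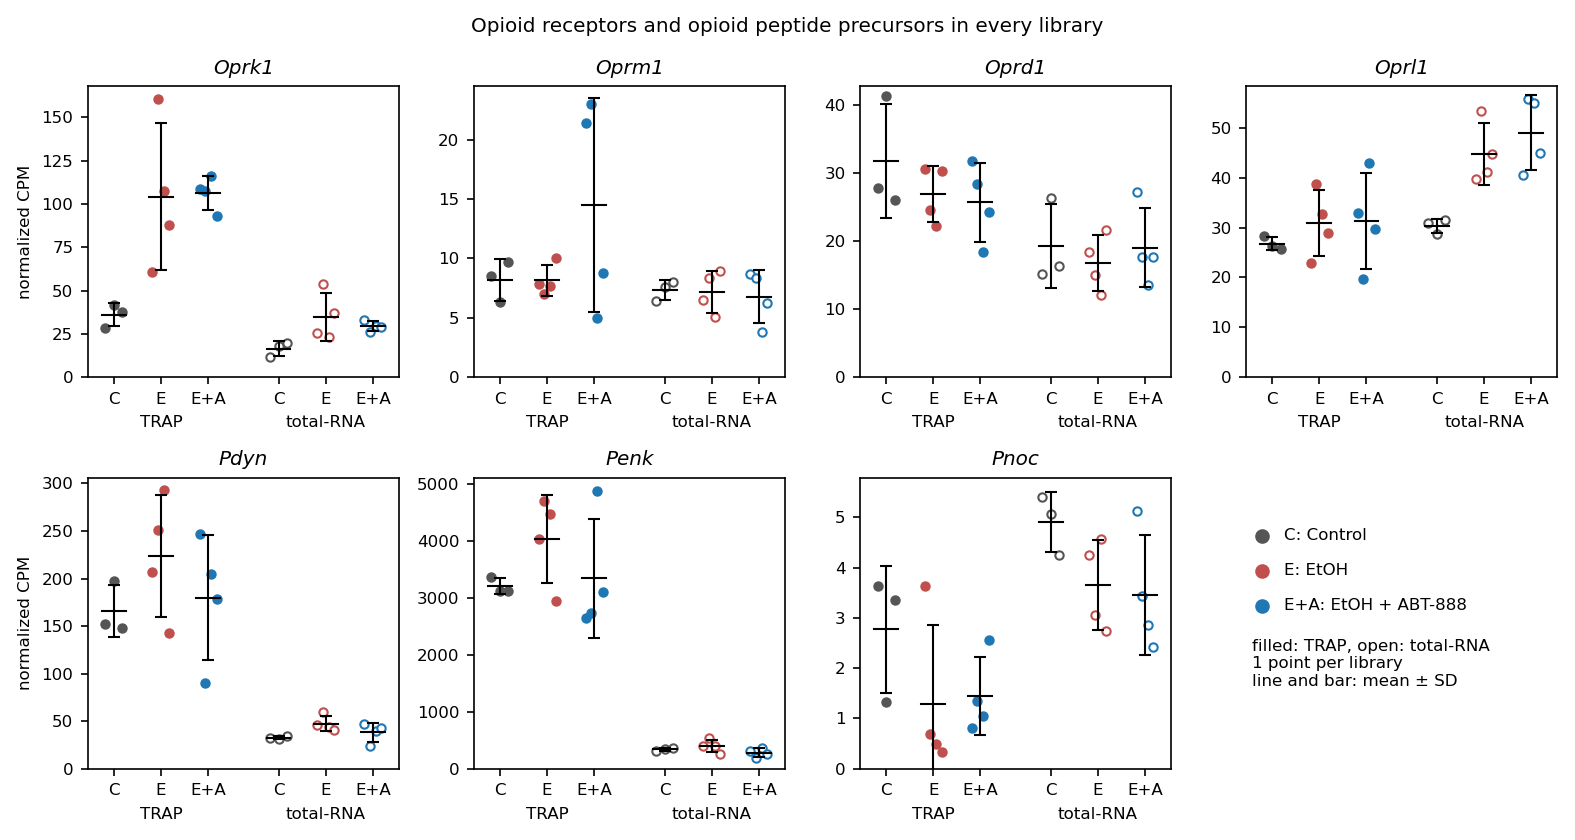
Normalized CPM of the 7 genes in each of 22 libraries (y axes, from 0), by treatment within TRAP (filled) and total-RNA (open), with the mean and SD of each group, cut at 0 for Pnoc. Oprk1 is at most 41.6 in Control_TRAP and at least 60.8 in the treated TRAP libraries, and Oprl1 is at most 31.4 in Control_total-RNA and at least 39.7 in the treated ones.

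Because Oprl1 and Pdyn rose together in total-RNA and both lie on chromosome 2, their promoters are shown, as RefSeq gives them for GRCm38.p6 from 250 bases before to 50 after a transcript start. The table holds 3 windows for Oprl1 and 2 for Pdyn, and the most upstream of each is printed. The Oprl1 window is chr2:181714766-181715065 on the plus strand and the Pdyn window chr2:129699889-129700188 on the minus strand, so the genes are far apart. Capitals mark matches, on either strand, to AGAACA, a core of glucocorticoid receptor sites, and to TATAAA.
Oprl1 promoter: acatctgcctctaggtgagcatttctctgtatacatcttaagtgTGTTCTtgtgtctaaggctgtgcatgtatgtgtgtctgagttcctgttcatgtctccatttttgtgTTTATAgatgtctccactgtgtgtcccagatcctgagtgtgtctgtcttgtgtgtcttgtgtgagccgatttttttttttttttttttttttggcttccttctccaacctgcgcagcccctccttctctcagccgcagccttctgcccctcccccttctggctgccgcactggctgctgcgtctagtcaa
Pdyn promoter: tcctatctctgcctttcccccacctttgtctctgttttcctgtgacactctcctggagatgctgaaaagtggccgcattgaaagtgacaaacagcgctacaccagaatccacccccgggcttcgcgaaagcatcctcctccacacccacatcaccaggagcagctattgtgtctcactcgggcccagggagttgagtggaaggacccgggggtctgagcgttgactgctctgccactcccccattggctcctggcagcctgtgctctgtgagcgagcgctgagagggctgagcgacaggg
The Oprl1 window holds 1 match to each, 206 and 140 bases before the start, and the Pdyn window holds none. Of the windows not printed, 1 of Oprl1 holds AGAACA, 64 bases before its start, and no other match was found. Among 32851 mouse promoters of this length, 19% hold AGAACA and 13.6% hold TATAAA. None of these windows holds TGACGTCA, the CREB site, which 1.79% hold, or its shorter core TGACG, which 20.8% hold. Oprk1, Penk and Pnoc were not matched in this table.

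The other members did not pass the test against Control with EtOH in either pool or with EtOH + ABT-888 in total-RNA. EtOH + ABT-888 in TRAP was not tested. In TRAP, EtOH called 0 of 6 members with edgeR (quasi-likelihood), against 5.24% of all transcripts, with none at an unadjusted p under 0.05 and none called by exactTest or DESeq2. Penk measured 4035, 4692, 4468 and 2948 normalized CPM in EtOH_TRAP, above Control_TRAP in 3 of 4 libraries, with a log2 difference of 0.35 ± 0.16 (adjusted p = 0.219). Pdyn measured 207, 251, 293 and 143 normalized CPM there, with mouse 9 below Control, and a log2 difference of 0.45 ± 0.22 (adjusted p = 0.237). Without the TRAP library of mouse 9, Pdyn had 0.61 (adjusted p = 0.0497, edgeR). With other libraries left out it fell to 0.29, with adjusted p up to 0.508.

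In EtOH + ABT-888_TRAP, Penk measured 2639, 2741, 4878 and 3108 normalized CPM and Pdyn 246, 90.7, 205 and 179, both spread around Control_TRAP. As a description, their log2 differences from Control_TRAP were 0.07 ± 0.20 and 0.13 ± 0.26, in a comparison that called 0.476% of all transcripts. In total-RNA, Penk measured 407, 536, 396 and 262 normalized CPM with EtOH and 317, 197, 365 and 262 with EtOH + ABT-888, against 316, 344 and 369 in Control. The log2 differences were 0.22 ± 0.18 (adjusted p = 0.402) and -0.26 ± 0.18 (adjusted p = 0.505). Mouse 5 had the highest Penk and Pdyn of all total-RNA libraries and also the highest sum of striatal markers, 2591 normalized CPM, and mouse 6 had the lowest of all 3 (197, 24.3 and 1473). Without the total-RNA library of mouse 9, Penk with EtOH had 0.38 (adjusted p = 0.0425, edgeR). Leaving out other libraries took it down to 0.05, with adjusted p up to 0.849.

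Oprd1 differed little between treatments. It measured 30.5, 24.6, 22.3 and 30.3 normalized CPM in EtOH_TRAP and 31.7, 28.4, 18.3 and 24.3 in EtOH + ABT-888_TRAP, within or below the Control_TRAP range of 26.1 to 41.3. The log2 difference with EtOH was -0.22 ± 0.20 in TRAP (adjusted p = 0.544, edgeR) and -0.20 ± 0.22 in total-RNA (adjusted p = 0.547), and with EtOH + ABT-888 -0.02 ± 0.25 in total-RNA (adjusted p = 0.982).

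Oprm1, the mu receptor, measured 7.86, 7.01, 7.72 and 10.1 normalized CPM in EtOH_TRAP against 8.54, 6.31 and 9.73 in Control_TRAP. The log2 difference was 0.01 ± 0.26 (adjusted p = 0.983, edgeR) and in total-RNA -0.03 ± 0.21 (adjusted p = 0.941). In EtOH + ABT-888_TRAP, mice 3 and 6 were above and mouse 10 below every Control_TRAP library, with a log2 difference of 0.82 ± 0.46 as a description.

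Pnoc was lower than in Control on average in each treated group, within the spread. In EtOH_TRAP it measured 3.64 normalized CPM in mouse 2 and 0.696, 0.491 and 0.340 in the other mice, the last from 5 counts. The log2 difference from Control_TRAP was -1.12 ± 0.73 (adjusted p = 0.385, edgeR), and without the TRAP library of mouse 2 it was -2.36 (adjusted p = 0.0433). In total-RNA it was -0.42 ± 0.22 with EtOH (adjusted p = 0.208) and -0.50 ± 0.27 with EtOH + ABT-888 (adjusted p = 0.386).

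**Figure D4:**
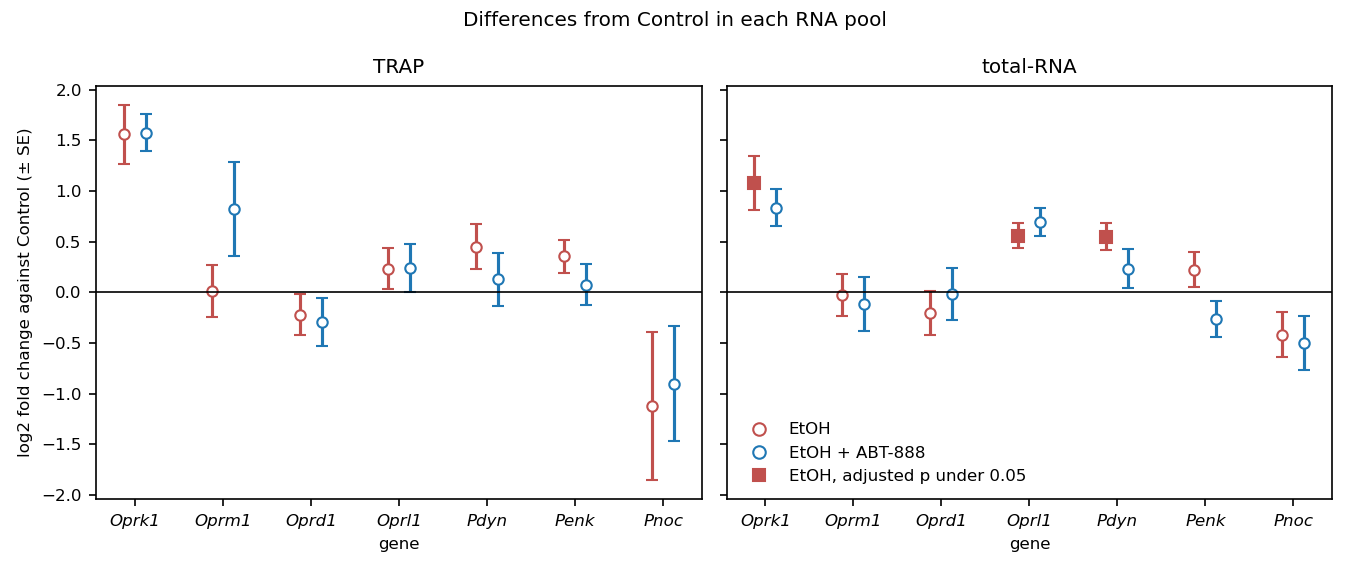
Log2 fold change against Control with its SE (y axis) for the 7 genes (x axis), in TRAP (left) and total-RNA (right), for EtOH and EtOH + ABT-888. Filled squares passed an adjusted p of 0.05, which were Oprk1 (1.08), Oprl1 (0.56) and Pdyn (0.55) with EtOH in total-RNA. In TRAP, Oprk1 carries no test (1.56 with EtOH and 1.58 with EtOH + ABT-888), and none of the 7 genes is tested with EtOH + ABT-888.

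EtOH + ABT-888 was compared with EtOH to ask what the inhibitor added. No member passed, 0 of 6 in TRAP and 0 of 7 in total-RNA with edgeR (quasi-likelihood), where 0% of all transcripts did. At an unadjusted p under 0.05 there were 0 members in TRAP and 1 in total-RNA, against 136 and 269 of all transcripts, and exactTest and DESeq2 called 0 in both. The 1 was Penk in total-RNA, with 400.1 ± 112 normalized CPM in EtOH and 285 ± 72.5 in EtOH + ABT-888, a log2 difference of -0.49 ± 0.22 (unadjusted p = 0.0428, adjusted p = 1.00 in this fit across all genes). In TRAP, Penk differed by -0.28 ± 0.21 and Pdyn by -0.32 ± 0.27 on the log2 scale. Oprk1 in total-RNA differed by -0.24 ± 0.23 and Oprl1 by 0.13 ± 0.15. A p that misses the threshold does not show that the treatments act alike.

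The interaction term tested if EtOH changed a gene unequally in the pools. It called 0 of 6 members with edgeR (quasi-likelihood), with 0 at an unadjusted p under 0.05 and 0 by DESeq2 or the likelihood ratio test, and 0.0213% of all transcripts. The difference of the log2 changes, TRAP minus total-RNA, was -0.35 ± 0.28 for Oprl1, -0.12 ± 0.37 for Pdyn and 0.11 ± 0.33 for Penk, and, as a description, 0.46 ± 0.39 for Oprk1. The rise of Oprl1 in total-RNA was thus not shown to differ from its TRAP value of 0.23 ± 0.20.

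Among the genes that carry or end opioid receptor signals, Rgs4, a GTPase-activating protein for inhibitory G proteins, had the smallest p of its list in both comparisons of total-RNA with Control. It fell from 816 to 389 normalized CPM with EtOH in total-RNA, by 1.07 ± 0.11 on the log2 scale (adjusted p = 0.000245, edgeR), and from 2089 to 896 in TRAP, by 1.20 ± 0.22 (adjusted p = 0.0121). With EtOH + ABT-888 it stood at 441 in total-RNA (adjusted p = 0.0470) and 1013 in TRAP (adjusted p = 0.0258). Of the 21 genes of its list, 2 rose and 5 fell with EtOH in total-RNA, with a median log2 difference of -0.13 against 0.00 over all transcripts tested, and Grk5, a receptor kinase, fell from 18.7 to 9.76 normalized CPM there and from 18.3 to 9.11 in TRAP. Rgs14 rose from 48.3 to 116 normalized CPM in EtOH_TRAP and stood at 92.8 in EtOH + ABT-888_TRAP (adjusted p = 0.0068 and 0.0322). The EtOH + ABT-888 calls of Rgs4 and Rgs14 are lost on leaving out the library of mouse 1, 4, 6, 7 or 11, since no transcript is then called.

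With EtOH in total-RNA, 2 of 17 G-protein subunits fell (Gnb5, 132 to 87.2 normalized CPM, and Gng3, 131 to 103) and none rose, with a median log2 difference of -0.22. In the same comparison 1 of 3 GIRK channels, Kcnj9, fell from 90.4 to 53.0 normalized CPM (median -0.36). The sum of the 3 was 421 in EtOH mouse 9, 278 to 312 in the other EtOH mice and 372 to 420 in Control. Of 8 adenylyl cyclases Adcy9 rose (107 to 139.7) and Adcy2 and Adcy3 fell (median -0.35). Of 19 processing and breakdown genes, 3 rose and 3 fell (median -0.11). The convertase Furin rose from 22.2 to 33.8 normalized CPM and cathepsin L (Ctsl) from 69.1 to 96.1, while aminopeptidase N (Anpep), which degrades enkephalins, fell from 5.34 to 2.25. Ctsl also rose in EtOH_TRAP, from 53.9 to 94.5 normalized CPM (adjusted p = 0.0124), as did Scg5, a chaperone of the convertase Pcsk2, from 221 to 319 (adjusted p = 0.0470) and Adcy9 from 119 to 197 (adjusted p = 0.0144). The background for the counts in total-RNA is the 17.6% of all transcripts called with EtOH.

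The transcripts whose log2 CPM followed Oprk1 most closely were taken from each pool as a description over 11 libraries that share treatments. In TRAP they were Epha8, an ephrin receptor (Pearson's r = 0.948), Clip4 (0.934) and Ptcd1 (0.932), with Epha8 at 7.71 normalized CPM in Control, 16.8 in EtOH and 16.5 in EtOH + ABT-888. In total-RNA they were Nhsl2 (0.943), Slc44a5 (0.940) and Gpr149 (0.908). Within the family, Oprl1 (0.747) and Pdyn (0.657) came closest to Oprk1 in total-RNA and Pnoc had the lowest coefficient (-0.64), while in TRAP Pnoc was at -0.67, Oprl1 at 0.455, Oprd1 at -0.45, Penk at 0.299, Pdyn at 0.288 and Oprm1 at 0.153.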

How the data were processed

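TRAP and total-RNA libraries of 11 mice were analysed from the raw counts the authors deposited. After ribosomal RNA depletion, the authors aligned paired-end reads of 50 bases to mm10 with STAR and counted them per gene with featureCounts and an ENSEMBL annotation, without normalization. Versions, the strand setting and how reads mapping to several places were handled are not given in the sources used here. No column was left unused.

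The 7 members and the lists of signalling genes and cell type markers were chosen with earlier results of these data known. Symbols, positions and lengths came from GENCODE M21 for mm10, which held 38872 of the 39056 gene IDs and not the other 184. Promoters came from RefSeq (GRCm38.p6). Following the study, genes that reached 500 counts over all libraries and were detected in at least 3 of them were kept. Counts were scaled by TMM in edgeR 4.0.16 (R 4.3.3), and its quasi-likelihood test was run per comparison on the libraries of the groups compared, with Benjamini-Hochberg adjustment over all transcripts tested and a threshold of 0.05. The interaction used all 22 libraries. Of the 14072 transcripts, 1 had no counts in the Control libraries of both pools, and a different one had none in the treated TRAP groups compared with each other. So 14071 were tested in each of those comparisons. Levels are normalized CPM, or FPKM over merged exons, given as mean ± SD. Log2 CPM used a prior count of 1.

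Named genes were the 7 members, Pomc, Camk2a, up to 4 genes of each list with the smallest p among those called, and the 3 transcripts most correlated with Oprk1 in each pool. Some genes named by this rule are not reported here. The sample titles name no mouse, so TRAP and total-RNA libraries were paired by their order within each pool. Deviations of the paired libraries from the group means correlated with r between 0.102 and 0.622 over the 11 pairs. Libraries of different mice were not correlated in this way, so these values cannot show that the pairing is right. The alternatives were exactTest, DESeq2 1.42.0, RLE factors, no filter, a joint fit of the 22 libraries, the mouse as a block, the likelihood ratio test for the interaction, the longest transcript as length, and each library left out once. The fits were also run on simulated independent libraries with large known changes in well-counted genes. That does not cover paired libraries, smaller changes or low counts, and its outcome is not reported here. P-values measure the spread between these mice, and depth limits the precision of Pnoc most, which had 5 to 59 counts per TRAP library.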

Additional observations from a re-analysis of the deposited data

Results flagged for a closer look

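In EtOH_TRAP, the Pnoc level of mouse 2 was 3.64 normalized CPM and stood far from the other mice of its group, whose levels were 0.696, 0.491 and 0.340. The gap to the next value took 0.892 of the group's whole range, above Dixon's critical value for 4 samples. It was the 1 value flagged among 28 groups of 4 libraries tested in this way over the 7 genes, and chance flags about 1 in 20 groups. The 4 values rest on 50, 15, 10 and 5 counts. The summed level of oligodendrocyte markers in that library was 746 normalized CPM, against 327 to 421 in the other EtOH_TRAP libraries. Microglia markers summed to 53.6 against 7.52 to 20.7 and vascular markers to 37.0 against 7.10 to 11.2 normalized CPM. Their part in the Pnoc value was not tested.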

How the results depend on the processing

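The members called differed with the fit, without changing direction. In TRAP against total-RNA the unblocked fits called 3 or 4 members in Control, 5 or 6 in EtOH and 4 or 5 in EtOH + ABT-888. For EtOH against Control of total-RNA, 3 were called as reported and 0 in a joint fit of the 22 libraries. For EtOH + ABT-888 against Control of total-RNA, 0 were called as reported and 2 with DESeq2, exactTest or no filter on low counts. Leaving out each library in turn gave 0 to 4 and 0 to 2 members in these comparisons with Control of total-RNA, and 0 to 1 in EtOH against Control of TRAP. In TRAP against total-RNA it gave 2 to 4 (Control), 4 to 6 (EtOH) and 2 to 4 (EtOH + ABT-888). It gave 0 in each fit of EtOH + ABT-888 against EtOH and of the interaction. The cause was not tested. No member count exists for EtOH + ABT-888 against Control of TRAP, where the members are described only.

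With the mouse as a replicate block, which uses the pairing, 4, 6 and 6 members were called in TRAP against total-RNA of Control, EtOH and EtOH + ABT-888, and 0 in the interaction, against 8788, 8276 and 7642 of all transcripts and 14 in the interaction. The block added Pnoc in EtOH and Oprm1 and Oprd1 in EtOH + ABT-888 and changed no other call of a member.

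With the longest transcript as gene length, FPKM in Control_total-RNA became 3.55 for Oprk1, 3.03 for Oprm1, 9.80 for Oprl1, 13.6 for Pdyn and 236.6 for Penk. This follows from the shorter length.

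Over all transcripts, calls for EtOH against Control of TRAP were 737, and 1523 with DESeq2, 1472 with no filter, 1372 with exactTest and 1191 in the joint fit. For EtOH + ABT-888 against Control of TRAP they were 67, and 420, 454, 318 and 403. For EtOH against Control of total-RNA they were 2482, and 151 in the joint fit. For EtOH + ABT-888 against Control of total-RNA they were 37, and 621 with DESeq2 and 544 each with no filter and exactTest. For EtOH + ABT-888 against EtOH of total-RNA they were 0, and 2 with DESeq2 or exactTest, and for the interaction 3, and 16 with DESeq2 or the likelihood ratio test, 5 with no filter and 14 with the block. Leaving out 1 library moved these counts, and so the background shares that rest on them, to between 84 (without Control mouse 4) and 1550 (without EtOH mouse 9) for EtOH in TRAP and to between 878 and 3616, without the same mice, for its total-RNA libraries. Against Control, EtOH + ABT-888 gave between 0 and 373 in TRAP and between 0 and 870 in total-RNA, with 0 in each pool without mouse 1, 4, 6, 7 or 11 and the highest count without mouse 3.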
